A study of Homo sapiens with 8 samples.

Results

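The S100 genes and one gene of an S100-binding protein were followed in JVM13 cells, a human B-cell line established from a B-prolymphocytic leukaemia. The genes were S100A4, S100A6, S100A8, S100A9, S100A10, S100A11, S100A13 and S100PBP, 8 of 18231 genes measured. They have 13 probe sets annotated to a single one of them, and each gene is represented by the probe set chosen by its mean over the 8 arrays, the brightest one. Those means are given only as a description. The genes themselves were picked with earlier results of these data known, the fall of S100A4 among them, so the p-values below are not independent support for that choice. All cells carried a doxycycline-inducible construct and all were given 0.1 µg/mL doxycycline. The construct held wild-type cyclin D1 (3 arrays), the stable T286A form of cyclin D1 (3 arrays) or no insert (empty vector, 2 arrays). The labels do not give the promoter of the vector, the number of clones or populations behind each construct, the length of induction, or whether replicates came from separate cultures, so the p-values reflect a spread between arrays that may be technical only.

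S100 proteins are small calcium sensors. Each carries a pair of EF-hands, helix-loop-helix calcium-binding folds, and most form dimers that open a binding surface when calcium rises and then bind target proteins. S100A4 binds non-muscle myosin and is known for its link to cell motility, S100A6 (calcyclin) binds the calcyclin-binding protein CACYBP, and S100A8 and S100A9 pair as calprotectin, an abundant protein of neutrophils and monocytes. S100A10 has lost calcium binding and holds annexin A2, S100A11 binds annexin A1, and S100A13 takes part in the release of growth factors that lack a signal peptide. S100PBP is not an S100 protein: it was named for its binding to S100P.

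S100A4 and S100A6 were the genes of the 8 that limma called, and they lie close together on chromosome 1 with S100A5 as the single protein-coding gene starting between them in the RefSeq table. Their promoters are shown because the data turn on these neighbours. The sequences are those of RefSeq (GRCh38.p14, minus strand, written 5′ to 3′ in the direction of transcription) and cover the 250 bases before the annotated start, chr1:153545807-153546056 for S100A4 and chr1:153535992-153536241 for S100A6. Capitals mark matches to the TATA motif (letters TATAAA), the GC-box motif (letters GGGCGG), the AP-1 motif (letters TGANTCA), the E-box motif (letters CACGTG) or the kappa-B consensus, all searched on both strands.
S100A4: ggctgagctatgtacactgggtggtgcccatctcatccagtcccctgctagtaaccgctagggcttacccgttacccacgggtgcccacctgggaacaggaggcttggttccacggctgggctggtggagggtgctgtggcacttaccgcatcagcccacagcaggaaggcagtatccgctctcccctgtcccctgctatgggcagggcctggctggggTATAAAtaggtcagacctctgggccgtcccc
S100A6: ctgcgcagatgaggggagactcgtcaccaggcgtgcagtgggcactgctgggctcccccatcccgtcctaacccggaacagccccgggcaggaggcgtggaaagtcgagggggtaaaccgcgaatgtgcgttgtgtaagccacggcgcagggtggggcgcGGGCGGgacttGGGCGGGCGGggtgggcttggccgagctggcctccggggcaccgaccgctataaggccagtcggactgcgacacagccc
The S100A4 window held 1 match, to the TATA motif, and the S100A6 window held 3 matches to the GC-box motif, of which 2 share bases. The S100A6 window also holds the letters TATAAG near its end, which differ from the TATA motif searched in the last letter. The TATA motif was found in 10.7% of 35116 promoter windows of this length, the GC box in 42.6%, the AP-1 motif in 6.57%, the E-box in 6.35% and the kappa-B consensus in 9.96%. The letters of the last 3 were not in either window. A match is a description of the letters and was not tested as a binding site.

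Values are log2 expression values for which the submitters' processing notes name robust multi-array averaging (RMA), a method that normalises arrays to each other, so each change is relative to other genes. Array medians still differed, between 5.47 and 5.62. Wild-type replicate 2 stood somewhat apart, with a limma array weight of 0.513 against 0.85 to 1.44 in the other arrays. CCND1, the cyclin D1 gene, was at 4.98 and 5.25 in empty vector, 10.98 to 11.13 in wild type and 10.86 to 11.25 in T286A. Of 8 listed B-cell markers 7 were measured, and the means of all 7 over the arrays were above the median of all genes (5.94), from 7.87 for BLK to 13.3 for MS4A1. The values carry no detection call. As a guide to how bright a probe set was, not to abundance, the 25th percentile of the gene means was 4.50.

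Wild-type cyclin D1 was set against empty vector first. S100A4 and S100A6 fell, S100A9 and S100A13 lay below empty vector in all arrays without being called, and the other 4 genes overlapped with the controls. A gene was called where its limma p, adjusted by Benjamini-Hochberg across the 18231 genes, was under 0.05. Of the 8 genes 2 were called, both lower, where 1.74% of all genes were called and 1.14% were called lower. Arrays did not overlap for 4 of the 8 genes, all lower, against 15.3% of all genes. The median difference of the 8 genes was -0.32, beside 0.0016 for all genes.

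S100A4, the motility-linked member, gave 11.15 and 11.16 in empty vector, 9.70, 9.59 and 9.58 in wild type, and 10.80, 10.68 and 10.76 in T286A (log2 levels). The 3 groups did not overlap: empty vector was highest, T286A intermediate and wild type lowest. Group means were 11.15 ± 0.0079 (SD, n = 2), 9.62 ± 0.070 (SD, n = 3) and 10.75 ± 0.061 (SD, n = 3). With wild type S100A4 was lower by a log2 difference of -1.53 ± 0.072 (SE; 95% interval -1.70 to -1.36), a level 2.89-fold lower (limma adjusted p = 6.31e-05). It was the 4th most lowered of all genes. The call was kept under each of 17 alternatives, with differences from -1.57 to -1.45.

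S100A6, or calcyclin, gave 9.48 and 9.60 in empty vector, 8.74, 8.77 and 8.90 in wild type, and 9.30, 9.26 and 9.14 in T286A. The order of the groups was that of S100A4, again without overlap, over a narrower range. Its level with wild type was 1.67-fold lower, a log2 difference of -0.74 ± 0.083 (SE; 95% interval -0.93 to -0.55, limma adjusted p = 0.00652). The call ended without empty vector replicate 1 (adjusted p = 0.0535) or replicate 2 (adjusted p = 0.0969) and, narrowly, with replicate number as a block (adjusted p = 0.0515).

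**Figure D1:**
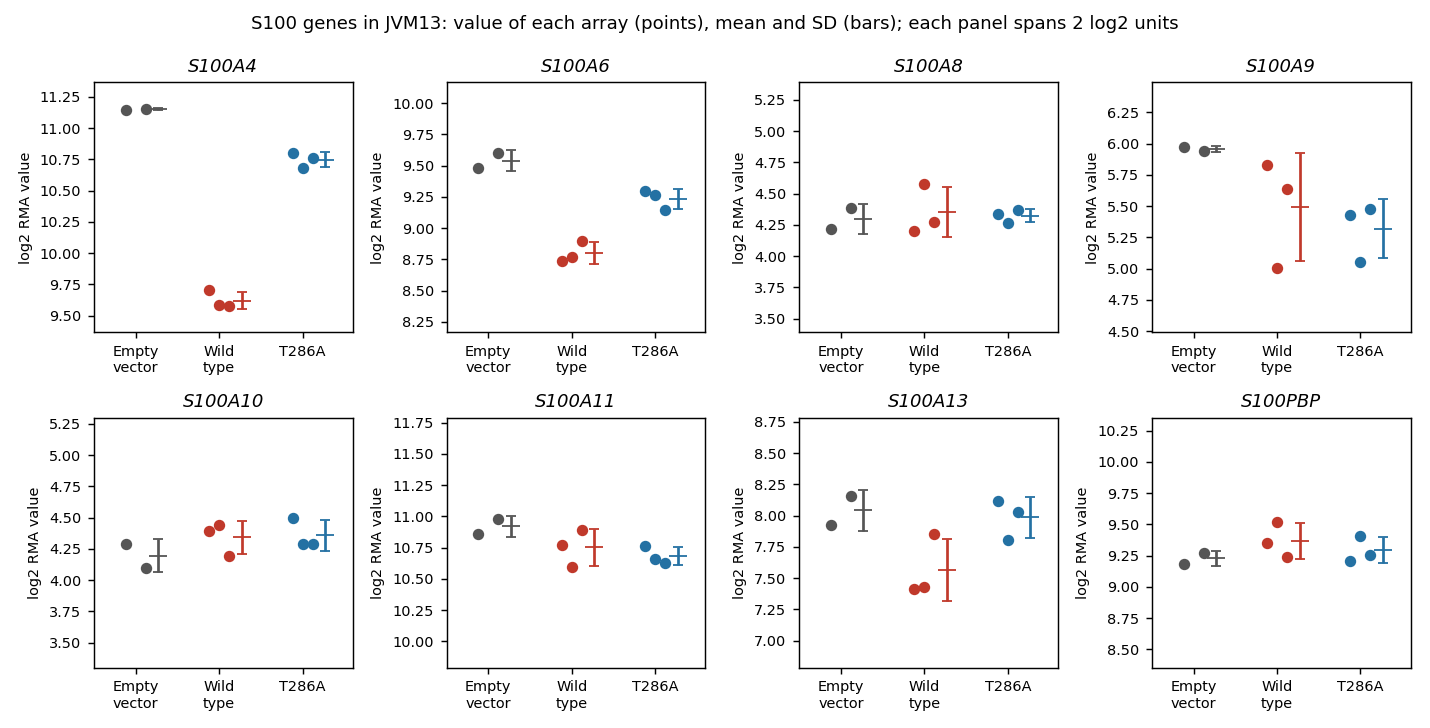
Log2 RMA value of each array for the 8 genes, with the group mean and SD beside the points; each panel spans 2 log2 units (n = 2 for empty vector, 3 for each construct). S100A4 and S100A6 show 3 separate groups with wild type lowest, while S100A8, S100A10 and S100PBP overlap between empty vector and wild type.

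S100A13, which assists non-classical secretion, was at 7.93 and 8.16 in empty vector and at 7.41, 7.43 and 7.85 in wild type. Wild-type replicate 3 came close to the lower control. The difference was -0.48 ± 0.15 (SE; 95% interval -0.83 to -0.12) and was not called (limma adjusted p = 0.214, unadjusted p = 0.0141).

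The calprotectin genes differed from each other. S100A9 was at 5.97 and 5.94 in empty vector and at 5.83, 5.01 and 5.64 in wild type, a difference of -0.46 ± 0.23 (limma adjusted p = 0.438). Its lowest value was in wild-type replicate 2, the array that stood apart, and without that array the difference was -0.22. Its partner S100A8 stayed between 4.20 and 4.58 over all 8 arrays, below the 25th percentile of gene means on average, and differed by 0.05 (95% interval -0.22 to 0.32).

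Of the annexin-binding members, S100A11 was bright, with 10.86 and 10.98 in empty vector and 10.77, 10.60 and 10.89 in wild type. Groups overlapped and the difference was -0.17 (95% interval -0.39 to 0.06, limma adjusted p = 0.52). S100A10 lay between 4.10 and 4.50 in all arrays, also dim, and differed by 0.15 (95% interval -0.10 to 0.40). S100PBP, between 9.18 and 9.52 in all arrays, differed by 0.14 (95% interval -0.09 to 0.37).

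T286A cyclin D1 was compared with the same 2 empty vector arrays, so the comparisons of the constructs with empty vector share their controls. limma called 0 of the 8 genes, where 0.532% of all genes were called, and 4 of the 8 had an unadjusted p under 0.05, where 12.1% of all genes did. Arrays were lower without overlap for S100A4, S100A6, S100A9 and S100A11, against 16.7% of all genes, and higher without overlap for S100A10, against 15.2%. The median of the 8 differences was -0.15, beside -0.0030 for all genes.

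For S100A4 the difference of T286A from empty vector was -0.40 ± 0.072 (SE; 95% interval -0.57 to -0.24), a level 1.32-fold lower, and limma's adjusted p was 0.058. This value sat at the threshold: with 4 of 17 alternatives the gene was called lower, with adjusted p from 0.00076 to 0.0304. These 4 alternatives also called more genes in all, from 190 to 618, against 97 as reported. For S100A6 the difference was -0.31 ± 0.083 (95% interval -0.50 to -0.12, limma adjusted p = 0.162), and 1 alternative, a variance trend, called it (adjusted p = 0.043).

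S100A9 had its lowest group mean with T286A. Its values were 5.43, 5.05 and 5.48, all below the 5.94 and 5.97 of empty vector, and the difference of -0.64 ± 0.23 (SE; 95% interval -1.16 to -0.11) was the most negative of the 8 genes in this comparison. It was not called (limma adjusted p = 0.304, unadjusted p = 0.0229), with an SE above those of the other 7 genes.

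S100A11 with T286A was at 10.77, 10.66 and 10.63, below both controls, a difference of -0.24 ± 0.097 (limma adjusted p = 0.382, unadjusted p = 0.0405). S100A13 was at 8.12, 7.81 and 8.03 with T286A, overlapping with empty vector (difference -0.06, 95% interval -0.41 to 0.30). S100A8, S100A10 and S100PBP differed by 0.02, 0.16 and 0.07, none called by limma (adjusted p = 0.964, 0.621 and 0.874). S100A10 was higher than empty vector in all T286A arrays only by decimals not printed here, since its lowest T286A value and the higher control both round to 4.29.

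**Figure D2:**
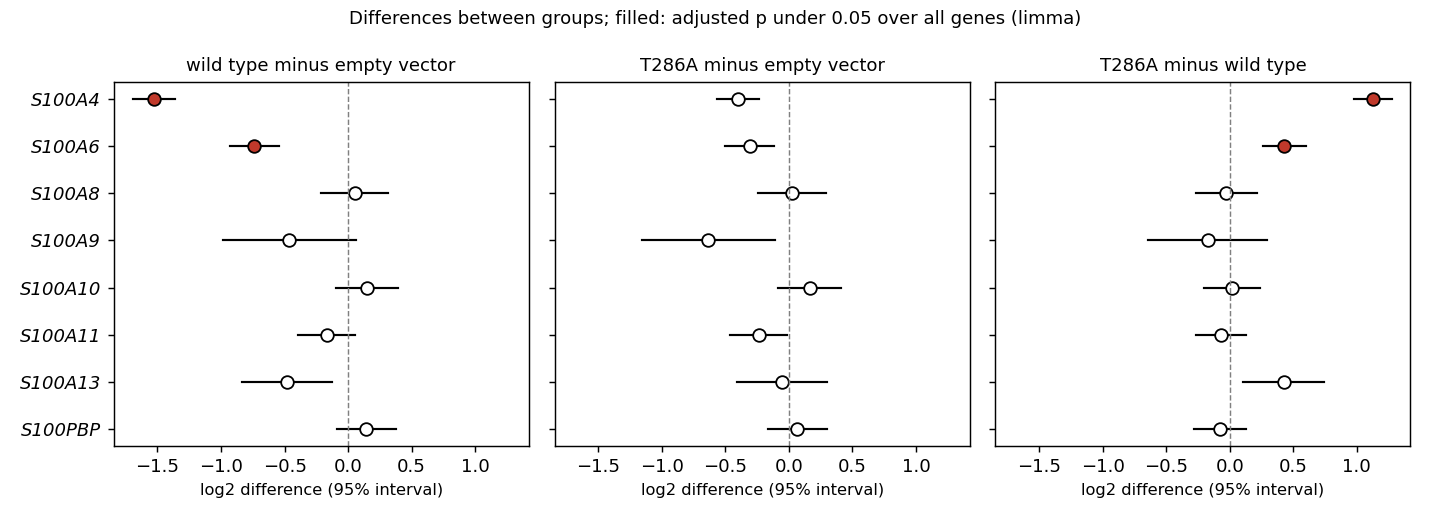
Log2 difference of each gene with its 95% interval in the 3 comparisons, 3 against 2 arrays for each construct against empty vector and 3 against 3 for T286A against wild type. Filled points were called by limma over all genes: S100A4 and S100A6, at -1.53 and -0.74 with wild type and at 1.13 and 0.43 in T286A minus wild type.

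Setting T286A directly against wild type tests whether the arrays of these constructs differed. S100A4 was higher in T286A by 1.13 ± 0.065 (SE, log2 difference; 95% interval 0.98 to 1.27), a 2.18-fold higher level, with limma's adjusted p at 0.00025. S100A6 was higher by 0.43 ± 0.075 (95% interval 0.26 to 0.60), 1.35-fold, with limma's adjusted p at 0.0425. So 2 of the 8 genes were called, both higher, where 0.987% of all genes were called and 0.598% were called higher. The same 2 were the members without overlap, where 9.94% of all genes were higher without overlap. The S100A4 call held under all 17 alternatives. That of S100A6 was lost without any one wild-type or T286A array (limma adjusted p from 0.0632 to 0.158). It was also lost under 5 other alternatives (adjusted p from 0.0558 to 0.145), with the difference always between 0.37 and 0.48. In this comparison leaving out either empty vector array gave the same fit as only the groups compared, so these alternatives are not separate checks.

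S100A13 followed the same direction in this comparison, at 0.42 ± 0.14 (95% interval 0.11 to 0.74), and was not called (limma adjusted p = 0.242, unadjusted p = 0.0149). Wild-type replicate 3, at 7.85, lay above T286A replicate 2, at 7.81. For the other 5 genes the differences lay between -0.17 for S100A9 and 0.01 for S100A10, and each 95% interval included 0. These intervals were widest for S100A9, from -0.64 to 0.30, so a difference of that size between constructs could not be seen here.

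The probe sets that were not chosen serve as a check. S100A4 has 3 probe sets, with means over all arrays of 10.43 for the chosen one and 10.40 and 10.38 for the others. The other S100A4 probe sets differed by -1.39 and -1.42 in wild type minus empty vector, by -0.42 and -0.35 in T286A minus empty vector, and by 0.97 and 1.08 in T286A minus wild type. All 3 were called with wild type and in T286A minus wild type when every probe set was fitted singly (largest limma adjusted p = 0.00120), and none with T286A against empty vector (adjusted p from 0.0995 to 0.104). Whether these probe sets share probes was not examined.

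S100PBP also has 3 probe sets, with means of 9.31 for the chosen one and 8.03 and 7.81 for the others, and all 3 had positive differences below 0.22 against empty vector with either construct, none called. S100A10 has 2, with means of 4.31 and 4.21. Their differences had opposite signs with T286A, at 0.16 and -0.10, and neither was called (limma adjusted p = 0.686 and 0.854). The remaining 5 genes have 1 probe set each.

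**Figure D3:**
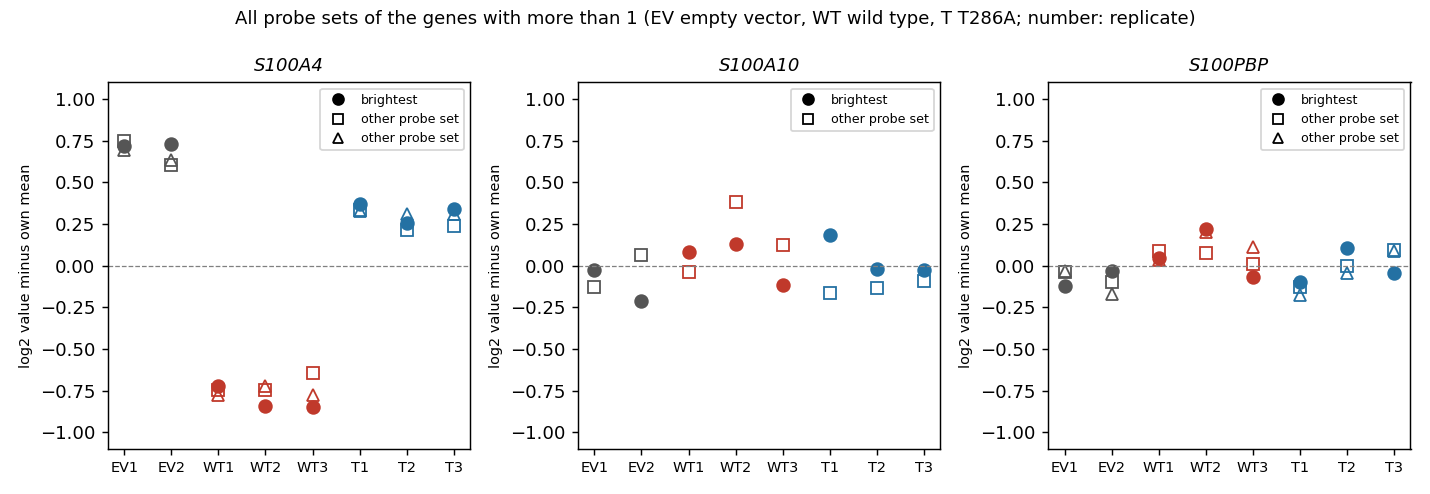
Log2 value of each probe set minus its own mean over the 8 arrays, for the 3 genes with more than 1 probe set; each point is 1 array and the colours mark empty vector, wild type and T286A. The 3 probe sets of S100A4 fall into the same 3 levels, while the 2 of S100A10 differ by array as much as by group.

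Chromosome 1 holds 16 of the 20 measured S100 family genes, among them all 7 S100 genes followed here. S100A5, which starts between S100A4 and S100A6, stayed between 4.66 and 5.08 in all arrays. Its differences from empty vector were -0.10 (wild type) and -0.16 (T286A), neither called. S100A3, the next family member beyond S100A4, stayed between 4.11 and 4.29, with differences of -0.02 and -0.03. Both were dim, S100A3 below the 25th percentile of gene means (4.50) and S100A5 below their median (5.94). Their flat values do not show that the genes beside S100A4 were unchanged.

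Of the 13 other S100 family genes measured, 0 were called by limma in any of the 3 comparisons, and 3, 1 and 1 had an unadjusted p under 0.05 (first wild type, then T286A, each against empty vector, and last the constructs against each other, where 13.5%, 12.1% and 13.6% of all genes had such a p). Over all genes 1.74%, 0.532% and 0.987% were called in the same order of comparisons. The median differences of the 13 genes were -0.04, -0.03 and -0.0040. The means of all 13 over the arrays were below the median of all genes, from percentile 6.40 for S100G to 42.9 for S100A2. The lack of calls at such dim probe sets does not show that these genes were unchanged. S100A14 and S100A2 had the smallest p with wild type, with differences of -0.35 and -0.29 (adjusted p = 0.161 and 0.191). S100A14 was at 4.84 and 4.97 in empty vector, at 4.58, 4.49 and 4.58 in wild type and at 5.09, 4.80 and 4.81 in T286A. As with S100A13, its neighbour in the order of S100 genes, the wild-type mean was below those of the other groups, without a call in either.

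**Figure D4:**
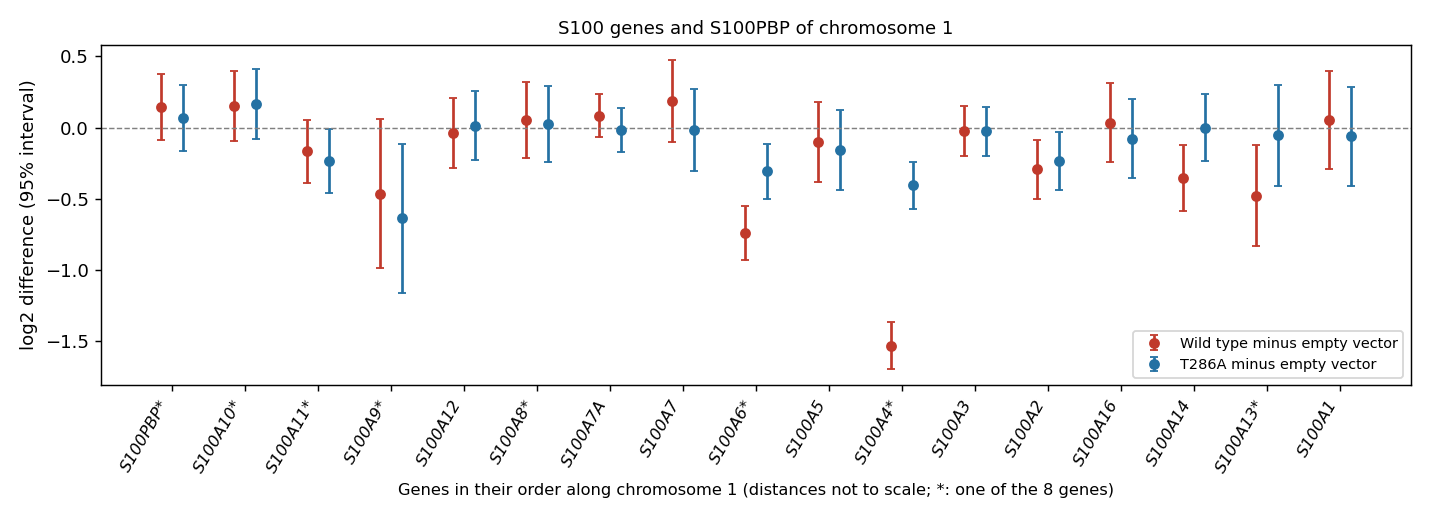
Log2 difference from empty vector with its 95% interval for 16 S100 genes and S100PBP, placed in their order along chromosome 1 (distances not to scale), wild type and T286A side by side; an asterisk marks one of the 8 genes. S100A6 and S100A4 stand below the other genes with wild type, and S100A5 between them, a dim probe set, is near 0, at -0.10.

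Genes of proteins that meet S100 proteins were taken from a list of 36, of which 33 were measured. limma called 1 higher and 0 lower with wild type, the same count with T286A, and 1 higher in T286A against wild type. Over all genes 1.74%, 0.532% and 0.987% were called in these comparisons, in either direction. The medians of the 33 were -0.03, -0.0036 and 0.01. In the same order 9, 6 and 9 of the 33 had an unadjusted p under 0.05, where 13.5%, 12.1% and 13.6% of all genes did. ANXA1, the annexin bound by S100A11, was at 9.33 and 9.50 in empty vector, 9.82, 9.74 and 9.85 in wild type and 9.93, 9.99 and 10.02 in T286A. It rose by 0.39 ± 0.077 with wild type (limma adjusted p = 0.0495) and by 0.57 ± 0.077 with T286A (adjusted p = 0.0315), against controls that both comparisons share. IL1A, interleukin 1 alpha, whose release involves S100A13, was 0.81 ± 0.11 higher in T286A than in wild type (limma adjusted p = 0.0167). It was at 6.44 and 6.60 in empty vector, 5.98, 5.86 and 6.26 in wild type and 6.71, 6.92 and 6.89 in T286A. ANXA2, the partner of S100A10, stayed between 11.52 and 11.68 in all arrays.

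Among 42 other EF-hand genes on a list that leaves some out, such as NCALD (below), 37 were measured. RCN1, a calcium-binding protein of the endoplasmic reticulum, was the single call among these. It fell by 0.45 on the log2 scale with wild type (SE 0.075, limma adjusted p = 0.028). With wild type, with T286A and between the constructs, 7, 6 and 9 of the 37 had an unadjusted p under 0.05. The shares over all genes were 13.5%, 12.1% and 13.6%. For calls, here and in the next lists, they were 1.74%, 0.532% and 0.987%. Of 28 genes of calcium entry and signalling, 1 was called higher and 2 lower with wild type, 0 with T286A, and 2 higher in T286A against wild type. The phospholipase PLCB1 fell by 1.49 and the ATP-gated channel gene P2RX5 by 0.79 with wild type (limma adjusted p = 0.00422 and 0.0035), and the calcineurin subunit PPP3CA rose by 0.41 (adjusted p = 0.0353). PLCB1 and P2RX5 were higher in T286A than in wild type by 1.04 and 0.83 (adjusted p = 0.0143 and 0.0019). In the same order of comparisons 7, 4 and 10 of these 28 had an unadjusted p under 0.05, beside 13.5%, 12.1% and 13.6% of all genes. Of the S100 fused-type genes, large skin proteins that begin with an S100 domain, all 7 were measured and 0 were called in any comparison, with 1, 0 and 0 at an unadjusted p under 0.05 in the order above.

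S100A8, S100A9 and S100A4 are also known from myeloid cells, so myeloid markers were read beside them. For this and the other marker lists, 1.74%, 0.532% and 0.987% of all genes were called in the 3 comparisons. Of 11 listed, 10 were measured, 0 were called in any comparison (2, 0 and 1 at an unadjusted p under 0.05), and 4 lay below the 25th percentile of gene means. Their mean per array was 4.87 to 4.92 in empty vector, 4.83 to 4.88 in wild type and 4.88 to 4.92 in T286A. ITGAM, at 7.06 to 7.88, was the brightest and the single one above the median of all genes. It was -0.42 in wild type minus empty vector and 0.45 in T286A minus wild type (limma adjusted p = 0.318 and 0.242). Of 8 fibroblast and endothelial markers, 0 were called in any comparison (2, 0 and 2 at an unadjusted p under 0.05). Their mean per array was 4.97 to 5.09 in empty vector, 5.04 to 5.05 in wild type and 5.00 to 5.05 in T286A. PECAM1, the brightest of them, was 0.37 in wild type minus empty vector and -0.44 in T286A minus wild type (limma adjusted p = 0.201 and 0.123). Neither the 9 T and NK nor the 6 epithelial markers had a call, with 2, 0 and 1 and with 0, 0 and 0 at an unadjusted p under 0.05. Of the 7 B-cell markers, 1, 1 and 5 had an unadjusted p under 0.05 in the 3 comparisons, against 13.5%, 12.1% and 13.6% of all genes. The one call was CD22, lower with wild type (-0.40, limma adjusted p = 0.0498), while the median difference of the 7 was 0.0062 and 3 of them were negative. None of the 5 markers in T286A minus wild type passed the adjustment; over the 7 markers the median difference was -0.03, with 4 negative. The part of other cells in the S100 values was not tested.

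The genes whose values over the 8 arrays were nearest to those of S100A4 were PRL, SERPINE2, MMP7, ABCG1 and CCL22. Likeness was the root mean square difference after each gene was centred on its own mean, from 0.074 for PRL to 0.17 for CCL22 (log2). PRL encodes prolactin, SERPINE2 a protease inhibitor, MMP7 a matrix protease, ABCG1 a cholesterol exporter and CCL22 a chemokine. PRL was at 9.55 and 9.57 in empty vector, 8.11, 8.02 and 8.14 in wild type and 9.22, 9.25 and 9.33 in T286A. All 5 were lower with wild type than with T286A in each array, as S100A4 was. The choice by likeness over these same arrays largely fixed this order, so it is not a separate result.

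For S100A6 the nearest genes were NCALD, CYS1, NME4, TNFSF10 and SERPINB9, at 0.070 to 0.091. NCALD encodes neurocalcin delta, itself an EF-hand calcium sensor, NME4 a mitochondrial nucleoside diphosphate kinase, TNFSF10 the death ligand TRAIL and SERPINB9 an inhibitor of granzyme B. NCALD was at 10.39 and 10.43 in empty vector, 9.67, 9.62 and 9.67 in wild type and 10.23, 10.05 and 10.12 in T286A. Picked for its likeness, NCALD was not on the EF-hand list above. It was called lower by limma with wild type (-0.76, adjusted p = 0.00345) and higher in T286A minus wild type (0.48, adjusted p = 0.0155). The choice by likeness to S100A6 over these same arrays largely fixed both calls, so they are not a separate result. S100A6 was the 70th nearest gene to S100A4, at 0.37. In the other direction S100A4 was the 14244th nearest to S100A6, so most genes lay nearer to S100A6 than S100A4 did. The values of S100A6 spanned 0.86 over the arrays, against 1.58 for S100A4. Likeness was not scaled for range, so a gene that hardly changed can lie nearer to S100A6 than S100A4 does. These points share arrays and normalization, so the likeness is a description.

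**Figure D5:**
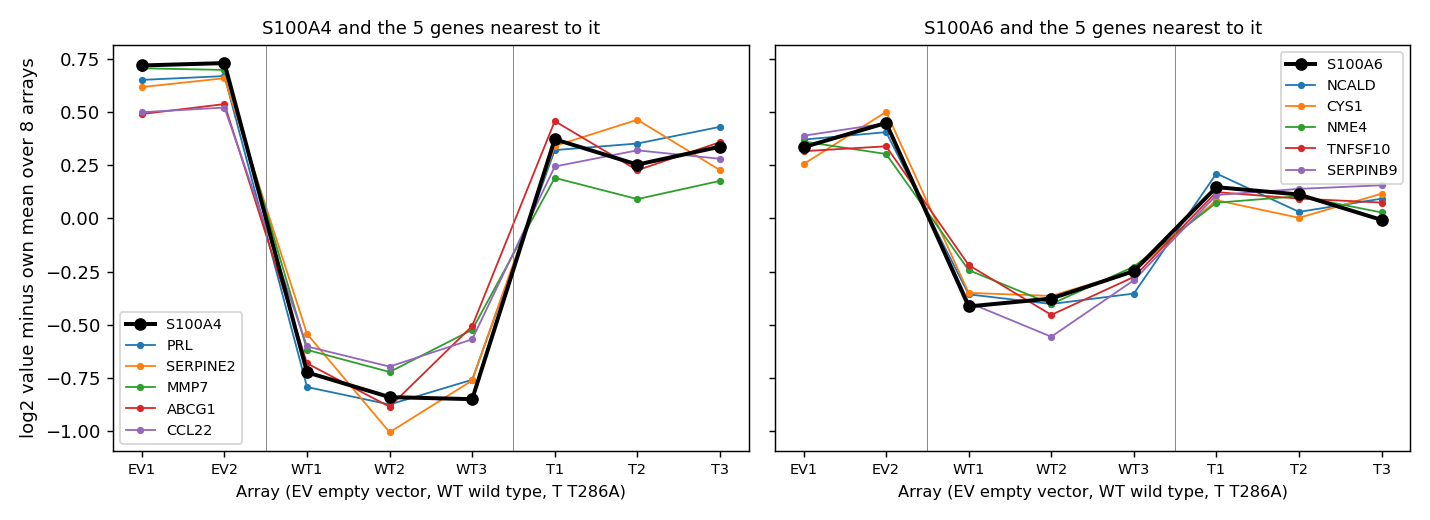
Log2 value minus the gene's own mean over the 8 arrays for S100A4 and S100A6 (black) and the 5 genes nearest to each; lines only join the points of 1 gene, since replicates have no order. In both panels empty vector is highest, T286A lies between and the 3 wild-type arrays are lowest. For the nearest genes this order was largely fixed by how they were chosen.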

How the data were processed

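RNA of 8 samples was hybridised to Affymetrix human expression arrays. The deposited table holds log2 expression values. The submitters' processing notes name RMA and R 3.5.0 for the authors' processing; other steps and detection calls are not given in the sources used here. Of 48864 probe sets, 10 control probe sets were left out and 45220 were annotated to 1 gene; 0 pairs of arrays were identical. The brightest probe set of each of 18231 genes was fitted with limma's lmFit and eBayes (version 3.58.1 under R 4.3.3; all 8 arrays, a mean per group, 5 residual and 3.27 prior degrees of freedom, no intensity filter), two-sided, with Benjamini-Hochberg adjustment over all genes and calls at 0.05. The fit was tested on simulated data. The number of arrays limits the precision.

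Groups and replicate numbers came from the sample titles. Members and the 10 other gene lists were chosen with earlier results of these data known. Named were CCND1, the 8 genes, from each list and comparison up to 3 called genes with the largest change or else the 2 with the smallest p, and the 5 genes nearest to each called member. Of the list entries that the rule took without a call, some are given only as counts. Genes described by position or as a binding partner (S100A5, S100A3, ANXA2) and ITGAM as the brightest myeloid marker were named outside the rule. Alternatives were a filter on dim genes, the mean of probe sets, single probe sets, array medians set equal, centring on housekeeping genes, only the groups compared, a replicate block, array weights, a variance trend and leaving out each array.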

Additional observations from a re-analysis of the deposited data

Results flagged for a closer look

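S100A4 and S100A6 differed between the T286A and wild-type arrays by the direct test of T286A minus wild type. The number of clones or populations behind each construct is not given, so a difference between populations was not tested. S100A4 was 1.13 higher in T286A (log2, limma adjusted p = 0.00025) and S100A6 was 0.43 higher (limma adjusted p = 0.0425). The S100A6 call was lost when any one wild-type or T286A array was left out. In both genes all 3 T286A arrays lay above all 3 wild-type arrays. Groups of 2 and 3 arrays are too small for a test of outlying arrays.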

How the results depend on the processing

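With 2 arrays of empty vector and 3 of each construct, calls near the threshold moved with the setting, and the values carry no detection call, so whether S100A8 and S100A10 lay above background was not tested. The S100A4 calls held throughout in wild type minus empty vector and in T286A minus wild type. The 2 members called with wild type became 1 with the replicate block, and 1 to 2 when arrays were left out. The 0 members called with T286A became 1 with the filter on dim genes, with the mean over probe sets and with array weights, and 2 with the variance trend. In the same order these settings called 527 of 9116 genes, then 190, 317 and 618 of 18231, against 97 as reported. In T286A minus wild type the 2 became 1 for single probe sets, equal array medians, housekeeping centring, only the groups compared and the replicate block. They also became 1 when any wild-type or T286A array was left out. The cause was not tested. Replicate numbers were not treated as pairs: deviations of same-numbered wild-type and T286A arrays correlated at 0.041, 0.12 and 0.0034, and the block moved all calls from 317 to 71, from 97 to 3 and from 180 to 86 in the 3 comparisons.

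Small uncalled differences turned sign. For S100A8 they were -0.00028 with array weights (wild type minus empty vector), -0.023 with housekeeping centring (T286A minus empty vector) and 0.031 with array weights (T286A minus wild type), and from -0.062 to 0.14, from -0.061 to 0.11 and from -0.10 to 0.086 in the same order when arrays were left out. For S100A10 in T286A minus wild type they were -0.14 with the mean over probe sets, -0.050 with equal array medians, -0.012 with housekeeping centring and from -0.059 to 0.065 when arrays were left out. S100A13 in T286A minus empty vector ranged from -0.17 to 0.058 when arrays were left out. The calls over all genes also moved. With equal array medians they were 195 higher and 146 lower for wild type (110 and 207 as reported), 40 and 32 for T286A (62 and 35), and 91 and 109 for T286A minus wild type (109 and 71); with housekeeping centring T286A gave 25 and 40. Other counts ran from 68 (only the groups compared) to 726 (variance trend) with wild type, 4 to 618 with T286A and 128 to 579 between constructs, and when arrays were left out from 22 to 196, 1 to 87 and 70 to 128.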
